A study of Mus musculus with 31 samples.

Results

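Brain border macrophages live in the perivascular spaces, the meninges and the choroid plexus, and the 10 genes examined here are widely used to mark them: *Mrc1*, *Cd163*, *Lyve1*, *Stab1*, *Cd209f*, *Folr2*, *Pf4*, *F13a1*, *Cbr2* and *Ms4a7*. They were taken by symbol, as 10 of the 55401 genes in the count tables, at a time when earlier results of these data were known. The study sequenced RNA from CD11b+ microglia isolated with magnetic beads from whole brain, and from homogenates of the temporo-occipital cortex, of 13-month-old mice. It asked how the PLCγ2-P522R variant, a knock-in (KI) made with CRISPR/Cas9 in the *Plcg2* gene, changes mice with and without β-amyloid pathology. The amyloid model was the APPswe/PS1dE9 line (APP/PS1), in which 1 transgene under the mouse prion protein promoter expresses a mutant chimeric mouse and human APP and a mutant human presenilin. All mice had the C57Bl/6J background, and none of the groups received a treatment.

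A- and A+ denote mice without and with the APP/PS1 transgene, and Pwt/wt and Pki/ki denote mice homozygous for the normal or the KI allele. The CD11b+ libraries came from 7 female A-/Pwt/wt, 4 female A+/Pwt/wt and 4 female A+/Pki/ki mice, and from 3 male A-/Pwt/wt (WT) and 4 male A-/Pki/ki (KI) mice. The cortex libraries came from 4 female A+/Pwt/wt mice, 4 female A+/Pki/ki mice and 1 female A-/Pwt/wt mouse. No female A-/Pki/ki and no male A+ mice were among the libraries used here, so the KI allele was compared without amyloid in males and with amyloid in females. The library names of the CD11b+ samples carry a batch tag, which was 3 for every female A- library, 2 for every female A+ library and 1 for every male library. In females the batch and the transgene therefore cannot be told apart, and neither can batch and sex. Mouse number 236 stands as A-/Pwt/wt among the CD11b+ labels and as A+/Pwt/wt among the cortex labels, and both labels were used as given.

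Border macrophages are resident macrophages, in large part of embryonic origin, that line the interfaces between brain, blood and cerebrospinal fluid. They take up solutes and debris through endocytic receptors and present antigen, and in mice with amyloid they have been studied for their part in vascular amyloid and in clearance along vessels. Like microglia they carry the integrin CD11b and depend on the receptor Csf1r, so a CD11b+ isolate contains both cell types, and in microglia most of the genes listed above are low.

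The promoters of 3 of the genes are shown as examples that hold the letters GAGGAAG, a core bound by ETS factors such as the myeloid factor PU.1. *F13a1* holds these letters too and is not shown. Most pairs of the 10 genes varied together across CD11b+ libraries, as described below, and these 3 were not set apart in this. Their pairs had Pearson's r of 0.54, 0.64 and 0.65 in female CD11b+ libraries, against a median of 0.59 over all 45 pairs. RefSeq promoters, which span 250 bases before to 50 bases after a start site on GRCm38.p6, were found for 9 of the 10 genes, with 12 start sites in all. They are written 5′ to 3′ on the strand of the gene, with the searched letters, or their reverse complement, in capitals. They lie at chr2:14229164-14229463 on the plus strand (*Mrc1*), at chr5:90772185-90772484 on the plus strand (*Pf4*) and at chr11:120731972-120732271 on the minus strand (*Cbr2*).
Mrc1: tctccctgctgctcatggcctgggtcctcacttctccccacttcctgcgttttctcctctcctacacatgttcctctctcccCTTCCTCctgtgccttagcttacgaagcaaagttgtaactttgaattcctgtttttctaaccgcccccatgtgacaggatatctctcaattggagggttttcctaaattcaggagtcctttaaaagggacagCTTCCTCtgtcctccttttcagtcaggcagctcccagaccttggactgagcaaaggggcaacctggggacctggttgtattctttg
Pf4: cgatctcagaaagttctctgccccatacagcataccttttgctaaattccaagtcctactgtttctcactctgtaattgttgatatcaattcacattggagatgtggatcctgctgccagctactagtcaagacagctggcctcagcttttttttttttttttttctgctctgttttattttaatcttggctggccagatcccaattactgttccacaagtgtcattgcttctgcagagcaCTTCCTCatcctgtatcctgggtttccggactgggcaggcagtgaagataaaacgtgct
Cbr2: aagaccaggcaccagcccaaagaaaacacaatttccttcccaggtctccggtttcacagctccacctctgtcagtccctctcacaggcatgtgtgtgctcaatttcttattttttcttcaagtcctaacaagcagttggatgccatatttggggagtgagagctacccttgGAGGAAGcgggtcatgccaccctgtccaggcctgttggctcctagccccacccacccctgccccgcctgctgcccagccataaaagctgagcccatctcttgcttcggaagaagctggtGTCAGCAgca

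GAGGAAG was present on either strand in 5 of these 12 promoters, those of *Cbr2*, *Mrc1*, *Pf4* and both start sites of *F13a1*, and in 13.6% of all 32851 promoters of the same length. TGCTGAC, letters recognised by the macrophage factors of the MAF family, was present in 1 of the 12, that of *Cbr2*, where it stands reversed near the end of the sequence, and in 4.67% of all promoters. The letters describe these windows and were not tested for binding.

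Total counts ranged from 18918255 to 25118180 in female CD11b+ libraries, from 16229831 to 19946001 in male ones and from 25226544 to 43129427 in cortex. Every one of the 10 genes was detected in all 31 libraries, with at least 14 counts in each CD11b+ library and at least 2 in each cortex library. Genes of homeostatic microglia, a list of 13 genes that includes *Csf1r* and *Sparc*, had summed levels of 14585 to 31453 CPM (counts scaled to a library total of 1000000) in CD11b+ libraries, against 646 to 1246 CPM in cortex, whereas the 10 border macrophage genes summed to 642 to 1828 CPM in CD11b+ libraries and to 21.7 to 37.5 CPM in cortex. *Stab1* was the largest part of the latter sums, with group means of 486 to 1177 CPM in CD11b+ libraries and 14.8 to 18.9 CPM in cortex. The isolates also held RNA of other cells. 8 oligodendrocyte genes summed to 6944 to 74256 CPM in CD11b+ libraries and 12 neuronal genes to 162 to 4007 CPM, the highest in both being the A-/Pwt/wt library of mouse 223, and 10 neutrophil genes, led by *S100a9*, *Ngp* and *S100a8*, summed to 40.8 to 1866 CPM, the highest being the A+/Pki/ki library of mouse 335. The KI labels could not be checked by level, since the KI changes the coding sequence. *App*, whose counts combine the endogenous gene with any reads of the chimeric transgene that aligned there, measured 3238 to 3955 CPM in the 8 A+ cortex libraries (3331 CPM in that of mouse 236) and 1903 CPM in the 1 A-/Pwt/wt cortex library. In female CD11b+ libraries it measured 617 to 975 CPM in A-/Pwt/wt (671 CPM in that of mouse 236) and 529 to 1033 CPM in A+ mice, so the ranges overlapped there. *Plcg2* had a log2 fold change (log2FC) of -0.36 (false discovery rate, FDR, 0.0581) in male KI against WT mice and of 0.13 (FDR 0.857) in female A+/Pki/ki against A+/Pwt/wt mice, and *App* of 0.29 (FDR 0.617) in female A+/Pwt/wt against A-/Pwt/wt mice. A library is called below by its mouse number, and levels are in CPM scaled by the TMM method within each of the 3 tables (female CD11b+, male CD11b+ and cortex), so that levels are comparable within a table. In such bulk libraries, fewer cells of a type and less RNA per cell cannot be told apart.

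Among the endocytic and scavenger receptors, *Stab1*, which encodes the clearance receptor stabilin-1, measured 519 to 1364 CPM (median 805) in CD11b+ libraries of female A-/Pwt/wt mice. *Mrc1* encodes the mannose receptor CD206, an endocytic lectin, and measured 122 to 309 CPM (median 151) in the same group. *Cd163*, the scavenger receptor for haemoglobin bound to haptoglobin, measured 36.7 to 71.2 CPM (median 62) there. *Lyve1*, a hyaluronan receptor that lymphatic endothelium expresses as well, measured 9.73 to 35.2 CPM (median 13.3). Of the smaller surface proteins, the C-type lectin *Cd209f* measured 12.2 to 33 CPM (median 20.3), and the tetraspan protein *Ms4a7* measured 8.95 to 21 CPM (median 16.2). *Folr2*, the folate receptor of macrophages, measured 0.902 to 5.92 CPM (median 3.05), from 14 to 130 counts. All 7 libraries thus held each receptor, and mice 223 and 224 were often the lowest and the highest. Of the genes of secreted proteins and enzymes, *F13a1*, the transglutaminase subunit of coagulation factor XIII, measured 52.6 to 104 CPM (median 91.5). *Pf4*, the chemokine CXCL4 that platelets also store, measured 14.7 to 33.3 CPM (median 22.7), and *Cbr2*, a carbonyl reductase, 15.3 to 40.4 CPM (median 32.5).

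To order the genes by level, CPM was divided by the length of their merged exons in kb. *Stab1* stood first in each of the 5 CD11b+ groups, with means of 47.2 ± 5.51 (SD, n = 4, female A+/Pwt/wt) to 114 ± 3.57 CPM per kb (n = 3, male WT), and its range lay above that of the next gene in each. *Pf4*, *Mrc1* and *Cbr2* followed in every group, with means of 10.5 to 32.6 CPM per kb, and their ranges overlapped, except that *Mrc1* (13 to 21.7 CPM per kb) lay above *Cbr2* (9.29 to 12.9 CPM per kb) in female A+/Pki/ki mice. *F13a1*, *Cd209f* and *Cd163* came next with means of 3.95 to 12.7 CPM per kb. Their ranges overlapped, except that *F13a1* lay above *Cd209f* in female A+/Pwt/wt (5.68 to 7.91 against 3.31 to 4.79 CPM per kb) and A+/Pki/ki mice (6.82 to 10.5 against 3.34 to 6.02 CPM per kb), and *Lyve1*, *Ms4a7* and *Folr2* were last with means of 1.9 to 5.25 CPM per kb. In cortex the spacing was closer. *Stab1* had 1.84 ± 0.184 CPM per kb (n = 4) and *Pf4* 1.18 ± 0.227 CPM per kb (n = 4) in A+/Pwt/wt mice.

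**Figure D1:**
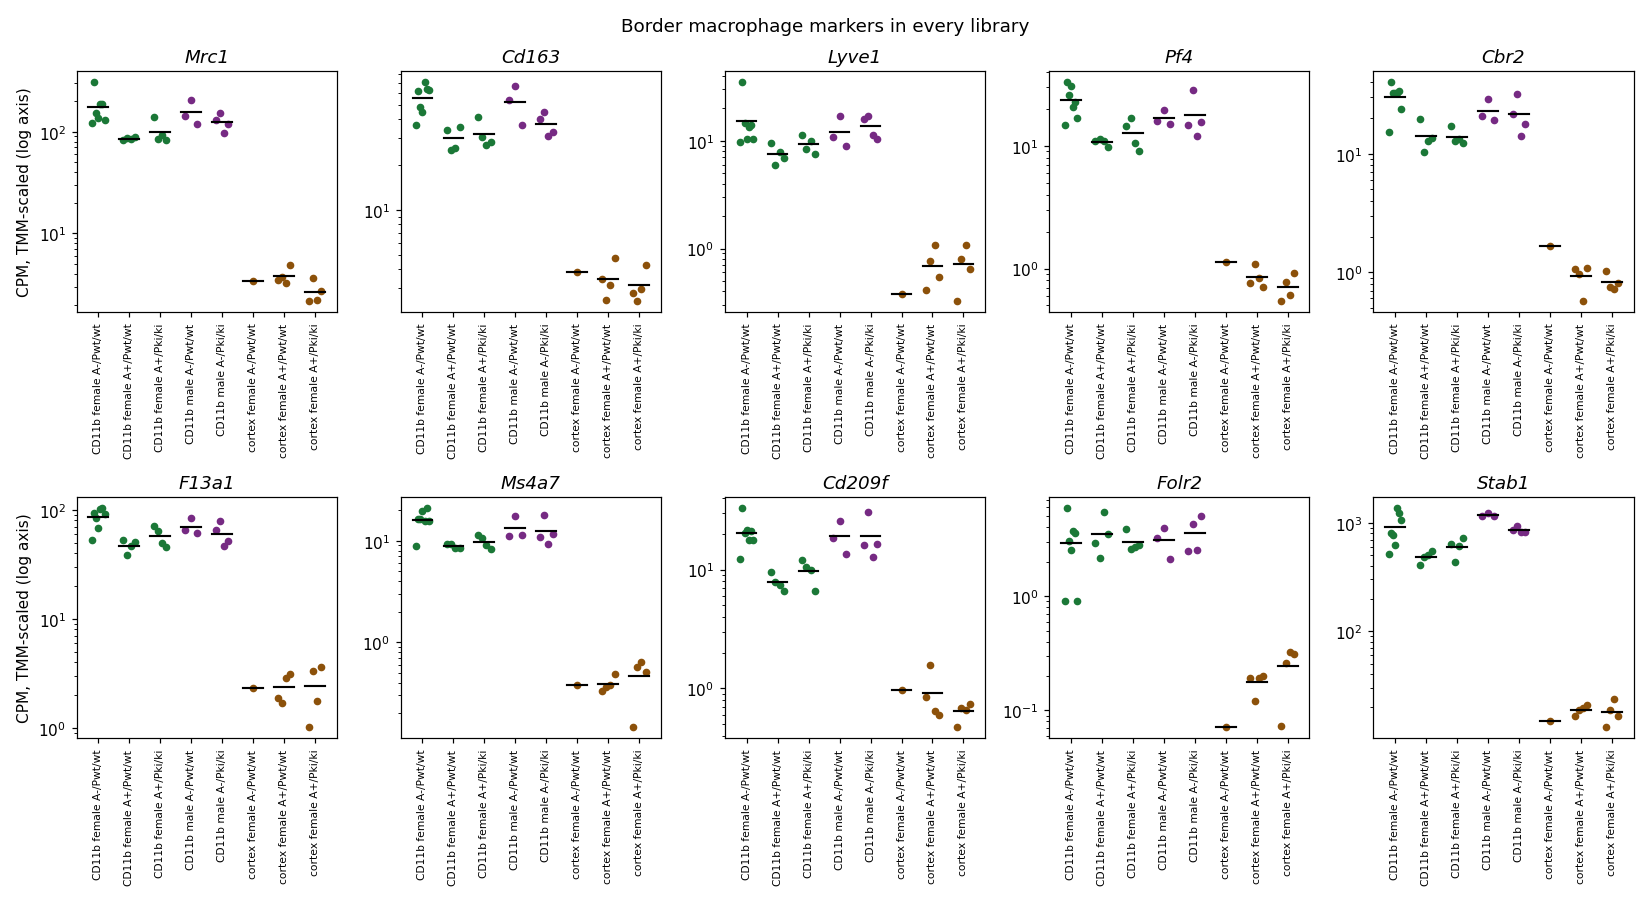
Level of each of the 10 border macrophage genes in every library (CPM, log axis), 1 panel per gene, with 1 point per library grouped by sample type, sex and genotype (green, female CD11b+; purple, male CD11b+; brown, cortex) and the group mean as a bar. The 3 kinds of library were scaled separately. For 5 genes every female A+/Pwt/wt library lies below every A-/Pwt/wt library, for *Cd209f* alone the libraries of both A+ groups do (6.59 to 12 against 12.2 to 33 CPM), and cortex lies far below every CD11b+ group.

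The first comparison asked whether the CD11b+ isolation carried border macrophage RNA along with microglial RNA. All 10 genes were higher in CD11b+ microglia than in cortex in A+/Pwt/wt females, where 37.7% of the 18541 genes tested were higher at an FDR of 0.05, and all 10 were higher in A+/Pki/ki females, where 36.8% of 18954 genes were. The log2FC ranged from 3.45 (SE 0.21) for *Cd163* to 5.03 (SE 0.14) for *Stab1* in A+/Pwt/wt mice, and from 3.62 (SE 0.23) for *Cd163* to 5.49 (SE 0.26) for *Mrc1* in A+/Pki/ki mice. *Mrc1* averaged 95.6 ± 3.57 CPM (SD, n = 4) in the isolates and 3.4 ± 0.668 CPM (n = 4) in cortex of A+/Pwt/wt mice, on the scale of that joint fit. No CD11b+ library overlapped a cortex library for any of the 10 genes, where 34.8% of genes tested in A+/Pwt/wt and 33.7% in A+/Pki/ki mice lay wholly above cortex. The tissues were taken from different mice, and whole brain, from which the cells came, includes the choroid plexus and more meninges than a piece of cortex, so tissue and isolation cannot be told apart.

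The rise was close to that of the microglial genes. The median log2FC of the 10 genes was 4.43 and 4.39 in A+/Pwt/wt and A+/Pki/ki mice, that of the 13 homeostatic microglial genes was 4.72 and 5.01, and that of all genes tested was -0.06 and -0.08. Of 32 further border macrophage genes, 29 of 31 tested were higher and 1 (*Ednrb*) was lower in A+/Pwt/wt mice, and 31 of 32 were higher in A+/Pki/ki mice, with medians of 3.65 and 3.82. Among the most abundant of them, *Lyz2* and *Maf* had log2FC of 4.63 and 3.11 in A+/Pwt/wt mice. The 12 neuronal genes were all lower in both genotypes, with medians of -4.14 and -4.92. A rise was not limited to genes of CD11b+ cells. In A+/Pwt/wt mice, with isolates and cortex scaled separately, choroid plexus genes summed to 613 to 2787 CPM in isolates and 22.7 to 99 CPM in cortex. Oligodendrocyte genes summed to 21937 to 50844 against 3842 to 6498 CPM, and blood endothelium genes to 2217 to 4008 against 670.1 to 797 CPM. Astrocyte genes (1224 to 2923 against 4886 to 5958 CPM) and meningeal fibroblast genes (36.4 to 69.4 against 74.8 to 112 CPM) were lower. Scaled to the homeostatic microglial genes instead of to all genes, only *Stab1* was higher in the isolates in both genotypes (log2FC 0.49, FDR 0.0106, and 0.61, FDR 0.0124) and *Cd163* was lower in both (-1.05, FDR 0.0054, and -1.06, FDR 0.00568). On that scale *Cd209f* was lower in A+/Pwt/wt mice (-1.01, FDR 0.0152), with -0.45 (FDR 0.217) in A+/Pki/ki mice, and *Mrc1* was higher in A+/Pki/ki mice (0.81, FDR 0.0124), with 0.28 (FDR 0.2) in A+/Pwt/wt mice. Of all genes tested, 94.9% and 95% were called on that scale in A+/Pwt/wt and A+/Pki/ki mice, with median log2FC of -4.57 and -4.77.

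**Figure D2:**
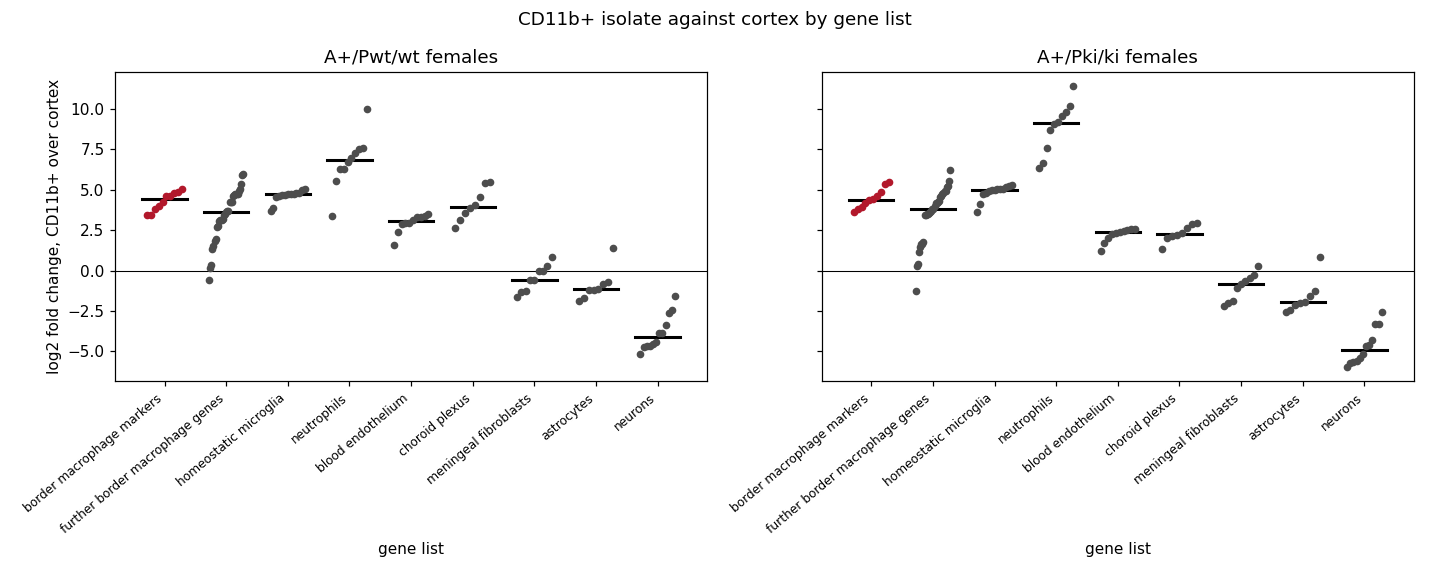
The log2FC of CD11b+ isolates over cortex for every tested gene of 9 lists, 1 point per gene with the list median as a bar, in A+/Pwt/wt (left) and A+/Pki/ki females (right), n = 4 against 4 in each. The 10 border macrophage genes (red) lie between 3.45 and 5.49, beside the homeostatic microglial genes (medians 4.72 and 5.01), and neuronal genes lie below 0 (medians -4.14 and -4.92). Summed levels of blood endothelium and choroid plexus genes were also higher in A+/Pwt/wt isolates than in cortex.

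The comparison of A+/Pwt/wt with A-/Pwt/wt females asked how the amyloid transgene went with these genes in CD11b+ microglia. Transgene and batch cannot be told apart in it. In A+/Pwt/wt isolates 3 of the 10 genes were lower, *Cd209f*, *Pf4* and *Cd163*, where 0.282% of the 17355 genes tested were lower at an FDR of 0.05 and 1.29% differed in either direction. Of the other members, 6 had log2FC of -0.83 to -1.09 at FDRs above the threshold, so that 9 of the 10 values were negative, with a median of -0.95 against -0.03 over all genes tested. *Folr2* was the exception (0.27, SE 0.47, FDR 0.962).

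*Cd209f* had the largest difference. It measured 9.52, 7.91, 7.43 and 6.59 CPM in the 4 A+/Pwt/wt libraries and 12.2 to 33 CPM (median 20.3) in the 7 A-/Pwt/wt libraries, so the groups did not overlap. Its log2FC was -1.37 (SE 0.24, 95% confidence interval -1.88 to -0.86, FDR 0.0121, edgeR quasi-likelihood test). *Pf4* measured 11, 11.3, 10.9 and 9.88 CPM in A+/Pwt/wt libraries against 14.7 to 33.3 CPM (median 22.7), again without overlap, with a log2FC of -1.11 (SE 0.22, -1.58 to -0.64, FDR 0.0269). *Cd163* measured 34, 24.9, 25.8 and 35.5 CPM against 36.7 to 71.2 CPM (median 62), with a log2FC of -0.88 (SE 0.19, -1.30 to -0.46, FDR 0.0485). Its highest A+/Pwt/wt library lay just below its lowest A-/Pwt/wt library.

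The other members with negative values were just short of the threshold or further from it. *Mrc1* measured 82, 86.3, 84.1 and 88.9 CPM in A+/Pwt/wt libraries against 122 to 309 CPM (median 151) in A-/Pwt/wt libraries, a log2FC of -1.02 (SE 0.24, FDR 0.0651) between groups that did not overlap. *Lyve1* did not overlap either, with 9.48, 5.91, 7.92 and 6.97 CPM against 9.73 to 35.2 CPM (log2FC -1.01, SE 0.35, FDR 0.254). *Stab1* measured 411, 479.9, 506 and 546 CPM against 519 to 1364 CPM (log2FC -0.89, SE 0.26, FDR 0.164), and 1 A+/Pwt/wt library lay within the A-/Pwt/wt range. Ranges also overlapped for *Cbr2* (log2FC -1.09, FDR 0.0598), *F13a1* (-0.85, FDR 0.0519) and *Ms4a7* (-0.83, FDR 0.0704), in each case through the low library of mouse 223. Thus 5 of the 10 genes had all A+/Pwt/wt libraries below all A-/Pwt/wt libraries, which held for 1.2% of the genes tested.

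The number of calls depended on which libraries and which test were used, while the median log2FC of the 10 genes stayed between -0.85 and -1.05 when any 1 library was left out. Without the A-/Pwt/wt library of mouse 223, in which the members were lowest and neuronal genes highest, 8 of the 10 genes were lower, and the same number was lower without mice 223 and 224 together, a choice made after seeing the data, or by DESeq2. The share of all genes called in either direction also rose, to 2.88%, 2.13% and 3.66% in these fits. Without any 1 of the A+/Pwt/wt libraries of mice 367, 375 or 380 none was called, and 0.529% to 0.562% of all genes were.

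The 32 further border macrophage genes gave 5 lower and 1 higher in this comparison, with 27 of 32 values negative and a median of -0.50. The lower genes were the lectins *Clec10a* (log2FC -1.34, FDR 0.0437), *Cd209g* (-1.34, FDR 0.0187) and *Cd209a* (-1.07, FDR 0.0471), the scavenger receptor *Cd36* (-0.78, FDR 0.0303) and *Ms4a4a* (-1.10, FDR 0.0227). The scavenger receptor *Colec12* was higher, with 55 ± 24.7 CPM (SD, n = 4) against 16.3 ± 2.78 CPM (n = 7). In the same libraries 8 of 10 amyloid-responsive microglial genes were higher, with a median log2FC of 2.45, and the 13 homeostatic microglial genes had values of -0.56 to 0.23 (median -0.02, summed level 15652 to 25066 CPM against 14585 to 25216 CPM). Of the other cell types that use these genes, the platelet list had 1 of 5 tested genes lower, *Gp9* (-1.14, FDR 0.0107), with summed levels of 63 to 107 CPM against 51.9 to 87.1 CPM, most of it from *Itgb3*. The lymphatic endothelium list, to which *Lyve1* belongs, had a median log2FC of -0.02 and summed levels of 44.9 to 68 CPM against 49.4 to 92.1 CPM. The dendritic cell list, which shares *Cd209a* with the border macrophage list, had 6 of 7 negative values (median -0.38) and summed levels of 28.4 to 40.5 CPM against 39.7 to 52.3 CPM, and the mural cell list 7 of 8 (median -0.42), with 453 to 917 CPM against 575 to 953 CPM. The part of RNA from platelets, dendritic cells or mural cells in the values was not tested.

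A+/Pki/ki females were compared with the same A-/Pwt/wt libraries, so the results share their controls. These groups differed in the transgene, the KI allele and the batch tag together, which cannot be told apart here. In A+/Pki/ki isolates 1 of the 10 genes was lower, *Cbr2* (log2FC -1.12, SE 0.23, 95% confidence interval -1.62 to -0.62, FDR 0.034), where 0.287% of 17446 genes were lower and 1.64% differed in either direction. *Cbr2* measured 17.1, 12.8, 13.3 and 12.3 CPM in A+/Pki/ki libraries and 15.3 to 40.4 CPM (median 32.5) in A-/Pwt/wt libraries, where mouse 223 alone lay within the A+/Pki/ki range. *Cd209f* measured 12, 10.6, 10 and 6.63 CPM against 12.2 to 33 CPM, without overlap, and had a log2FC of -1.07 (SE 0.25, FDR 0.0579). It was the 1 gene of the 10 whose groups did not overlap, against 1.22% of the genes tested with the A+/Pki/ki libraries lower. *Cd163* followed with -0.81 (SE 0.20, FDR 0.0638), and the other 7 genes had values of -0.88 (*Pf4*) to 0.03 (*Folr2*) with FDRs of 0.117 or more. The median of the 10 was -0.77 against -0.01 over all genes tested. In the same comparison without the library of mouse 335, in which neutrophil genes were highest, or without that of mouse 223, 4 of the 10 genes were lower, without mouse 245 it was 1, and without any of the other 8 libraries none was called. DESeq2 called 6. Of all genes, 6.35% were called without mouse 335, 2.08% without mouse 223 and 5.48% by DESeq2.

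Of the 32 further border macrophage genes, 5 were lower in A+/Pki/ki than in A-/Pwt/wt isolates, with a median of -0.38. These were *Mgl2* (log2FC -1.67, FDR 0.0328), *Clec10a* (-1.48, FDR 0.0296), *Cd209g* (-1.31, FDR 0.0173), *Ms4a4a* (-1.13, FDR 0.0329) and *Cd36* (-0.93, FDR 0.0229). Genes of meningeal fibroblasts, which border the same spaces, had summed levels of 18.1 to 43.3 CPM in A+/Pki/ki, 36.4 to 69.4 CPM in A+/Pwt/wt and 51.3 to 67.7 CPM in A-/Pwt/wt isolates, and 1 of 9, *Col1a2*, was lower in A+/Pki/ki isolates (-1.26, FDR 0.0186). Choroid plexus genes summed to 116 to 2453 CPM in A+/Pki/ki, 613 to 2787 CPM in A+/Pwt/wt and 689 to 2902 CPM in A-/Pwt/wt isolates (median log2FC against A-/Pwt/wt -0.88 and 0.19). Dendritic cell genes summed to 22.2 to 39.3 CPM in A+/Pki/ki isolates, wholly below the 39.7 to 52.3 CPM of A-/Pwt/wt isolates (median log2FC -0.66), and mural cell genes to 309.6 to 645 CPM against 575 to 953 CPM, with all 8 values negative (median -0.78). Whether the amount of border tissue or of these cells in the isolates had a part in the lower values was not tested.

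**Figure D3:**
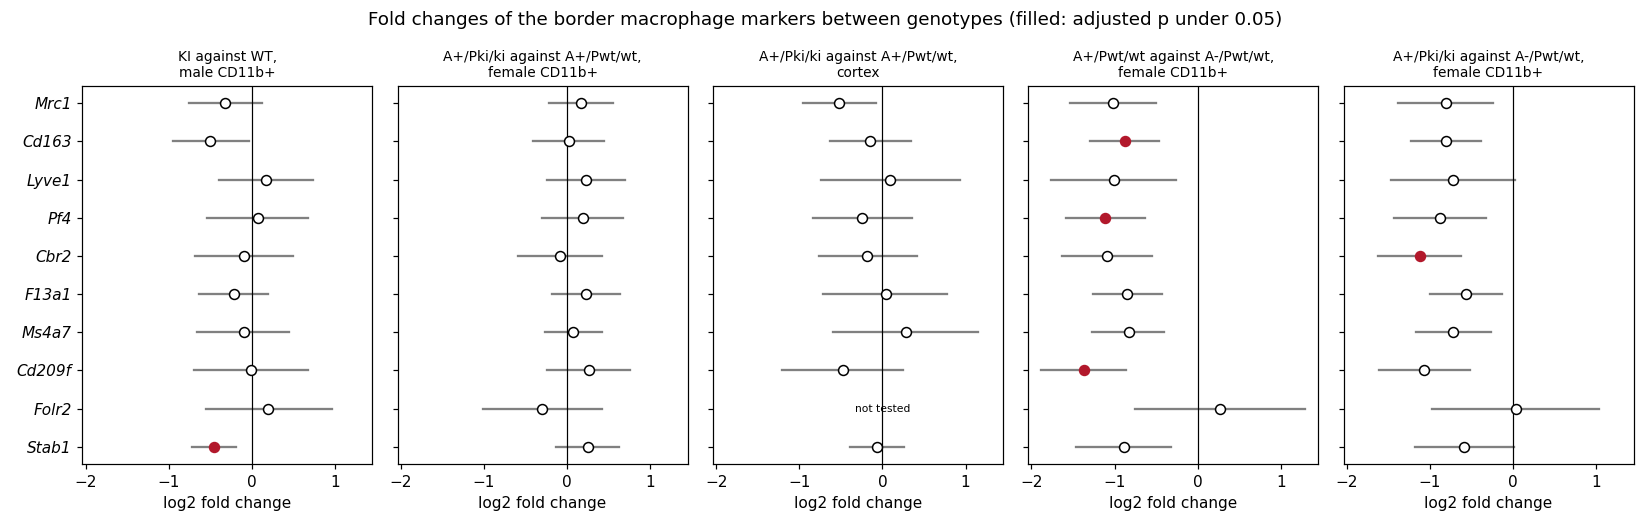
The log2FC of each of the 10 genes with 95% confidence intervals in the genotype comparisons of CD11b+ microglia and of cortex, with filled points where the FDR was under 0.05. In both comparisons of A+ with A-/Pwt/wt females 9 of 10 points lie below 0 (medians -0.95 and -0.77), and in the KI comparisons the points lie on both sides of 0.

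The KI allele was compared within APP/PS1 females, A+/Pki/ki against A+/Pwt/wt. None of the 10 genes differed in CD11b+ microglia by edgeR, by DESeq2 or at an unadjusted p under 0.05, where edgeR called 0% of the 17039 genes, with 575 at an unadjusted p under 0.05, and DESeq2 called 7. The log2FC ranged from -0.30 (*Folr2*, 95% confidence interval -1.01 to 0.42) to 0.26 (*Cd209f*, -0.24 to 0.76), with a median of 0.18 against 0 over all genes tested. *Stab1* measured 641, 435, 613 and 722 CPM in A+/Pki/ki isolates and 411, 479.9, 506 and 546 CPM in A+/Pwt/wt isolates, ranges that overlapped (log2FC 0.25, SE 0.16, -0.13 to 0.62, FDR 0.853). *Mrc1* measured 138, 85.4, 92.3 and 82.5 CPM against 82 to 88.9 CPM (log2FC 0.17, SE 0.17, -0.22 to 0.55), the high value being that of mouse 244. The upper bounds for the genes other than *Cd209f* and *Lyve1* (0.70) were 0.67 or less, and the lower bounds other than that of *Folr2* were -0.59 or more. The 32 further border macrophage genes had values of -0.98 to 0.49 (median 0.06).

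In cortex, A+/Pki/ki against A+/Pwt/wt gave no call among the 9 genes tested by edgeR or by DESeq2, with edgeR calling 0% of 18640 genes (514 at an unadjusted p under 0.05) and DESeq2 calling 11. *Folr2* had 2 to 14 counts per library and was not tested. *Mrc1* measured 2.18, 3.62, 2.2 and 2.74 CPM in A+/Pki/ki and 3.46, 3.77, 3.25 and 4.92 CPM in A+/Pwt/wt cortex. The ranges overlapped through mouse 203, and the log2FC of -0.52 (SE 0.20, 95% confidence interval -0.96 to -0.08) had an unadjusted p of 0.0234 and an FDR of 1 in edgeR. It was the 1 member with an unadjusted p under 0.05. The other values ranged from -0.48 (*Cd209f*, -1.21 to 0.25) to 0.28 (*Ms4a7*, -0.59 to 1.15), and the intervals of these 2 genes of low count reach past a 2-fold difference. The median of the 9 was -0.15 against 0 over all genes tested.

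In males without the transgene, KI was compared with WT. *Stab1* alone of the 10 genes was lower in KI microglia, where 5.26% of 16373 genes were lower, 11.1% were higher and 16.4% differed in either direction. It measured 823, 827, 855 and 929.6 CPM in KI libraries and 1156, 1157 and 1219.8 CPM in WT libraries, without overlap, which held for 15.4% of genes in this direction. Its log2FC was -0.46 (SE 0.12, 95% confidence interval -0.72 to -0.19, FDR 0.0313, edgeR quasi-likelihood test). *Cd163* measured 40.5, 44.5, 30.8 and 33 CPM in KI libraries and 53.9, 66.6 and 36.9 CPM in WT libraries (log2FC -0.50, SE 0.20, -0.95 to -0.04, FDR 0.12), with overlapping ranges. The other 8 genes had values of -0.32 (*Mrc1*, FDR 0.291) to 0.20 (*Folr2*, FDR 0.706), and the median of the 10 was -0.10 against 0 over all genes tested. Of the 32 further border macrophage genes, *Ms4a6b* (-0.61, FDR 0.0142) and the lectin *Siglec1* (-0.66, FDR 0.0418) were lower and *Ednrb* (0.94, FDR 0.0106) was higher.

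Other cell types differed between these male groups. All 12 neuronal genes were higher in KI libraries (median log2FC 2.10, summed level 595 to 1363 CPM against 182 to 269 CPM), as were all 8 astrocyte genes (median 1.14). Of 5 platelet genes tested 3 were lower (median -0.48, summed level 61.3 to 84.3 CPM against 97.1 to 103 CPM), and of 8 mural cell genes 2 were higher (median 0.82). The 13 homeostatic microglial genes had negative values throughout (median -0.39, summed level 19293 to 30784 CPM against 29971 to 31453 CPM), 1 of them, *Sall1*, being lower at the threshold. Scaled to the homeostatic microglial genes, *Stab1* had a log2FC of -0.06 (FDR 0.762). It also missed the threshold when any library other than that of KI mouse 104 was left out (FDR 0.0663 to 0.199).

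The KI effect in males without the transgene was then set against the KI effect in APP/PS1 females in 1 model. None of the 10 genes differed between these effects by edgeR, which called 0% of the 17619 genes (4664 at an unadjusted p under 0.05). *Stab1* had the largest negative difference, -0.67 (SE 0.20, 95% confidence interval -1.11 to -0.24), with an unadjusted p of 0.00506 and an FDR of 0.143 in edgeR, and was the 1 member under 0.05 unadjusted. DESeq2 called it (-0.73, FDR 0.0257) among 1185 genes, as did edgeR without the A+/Pki/ki library of mouse 335 (-0.88, FDR 0.00243), a fit that called 6199 of 17495 genes (35.4%), against 1 of the 10. Scaled to the homeostatic microglial genes the difference was -0.10 (FDR 0.698). The other 9 genes had differences of -0.49 (*Cd163*) to 0.52 (*Folr2*), and sex, batch and the transgene cannot be told apart here.

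Within the groups, most pairs of the 10 genes rose and fell together across CD11b+ libraries. Each gene's log2 CPM was centred on its group mean, and the 45 pairs of genes had a median Pearson's r of 0.59 over the 15 female CD11b+ libraries, with 43 of 45 positive and 30 above 0.5, and of 0.87 over the 7 male ones, with 41 above 0.5. In cortex the median was 0.24 over 9 libraries (range -0.85 to 0.92), at counts that were often under 50. The pairs share their libraries and hence their depth and composition, and the values are a description. The mean of the 10 genes lay furthest below its group in mouse 223 (-0.73 on the log2 scale) and furthest above it in mouse 224 (0.56), both female A-/Pwt/wt. In males it ranged from -0.35 (KI mouse 136) to 0.45 (KI mouse 104).

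*Stab1* followed the other 9 genes least in females (r = 0.31 with their mean, against 0.64 to 0.87 for the rest), and in males it did so like the rest (r = 0.91). In males *Folr2* was the lowest (0.58). The mean of the 10 genes followed the mean of the further border macrophage genes closely, with r = 0.97 in females and 0.99 in males, but -0.10 in cortex. It also followed 2 lymphocyte genes (0.70 in females and 0.84 in males). For the platelet genes r was 0.28 in females and 0.76 in males, and for the amyloid-responsive microglial genes 0.42 and 0.74. For the homeostatic microglial genes r was 0.31 and 0.68, for the neuronal genes -0.22 and 0.01, for the monocyte genes 0.14 and 0.18, and for the choroid plexus genes 0.12 and -0.76. Without mouse 223 the median r between pairs in females was 0.42.

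Of 14652 other genes that averaged 1 CPM or more, 46 had an r of 0.7 or more with the mean of the 10 genes over the 15 female libraries, and the median r was 0.03. The most alike were *Tgfbi*, a matrix protein secreted by macrophages (r = 0.91 in females, 0.98 in males and 0.94 in cortex), and the C-type lectin *Clec4a1* (0.85, 0.86 and 0.60). Ranked next were the helicase *Dhx16* (0.84 in females, 0.35 in males, -0.27 in cortex), *Zc3h10* (0.82, 0.62 and 0.04), *Thoc6* (0.82, 0.39 and 0.09), *Cnot11* (0.82, 0.56 and -0.16) and *Zfp386* (0.81, 0.14 and 0.1). Lower among the 15 most alike were the lectins *Cd209b* (0.80 in females, 0.66 in males and 0.44 in cortex) and *Asgr2* (0.77, 0.73 and 0.02), the Fc receptor *Fcgrt* (0.79, 0.37 and 0.47) and the lysosomal enzyme *Hgsnat* (0.80, 0.97 and -0.75). Of the 15, only *Tgfbi* and *Cd209b* are on any of the lists used here, both on that of further border macrophage genes.

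**Figure D4:**
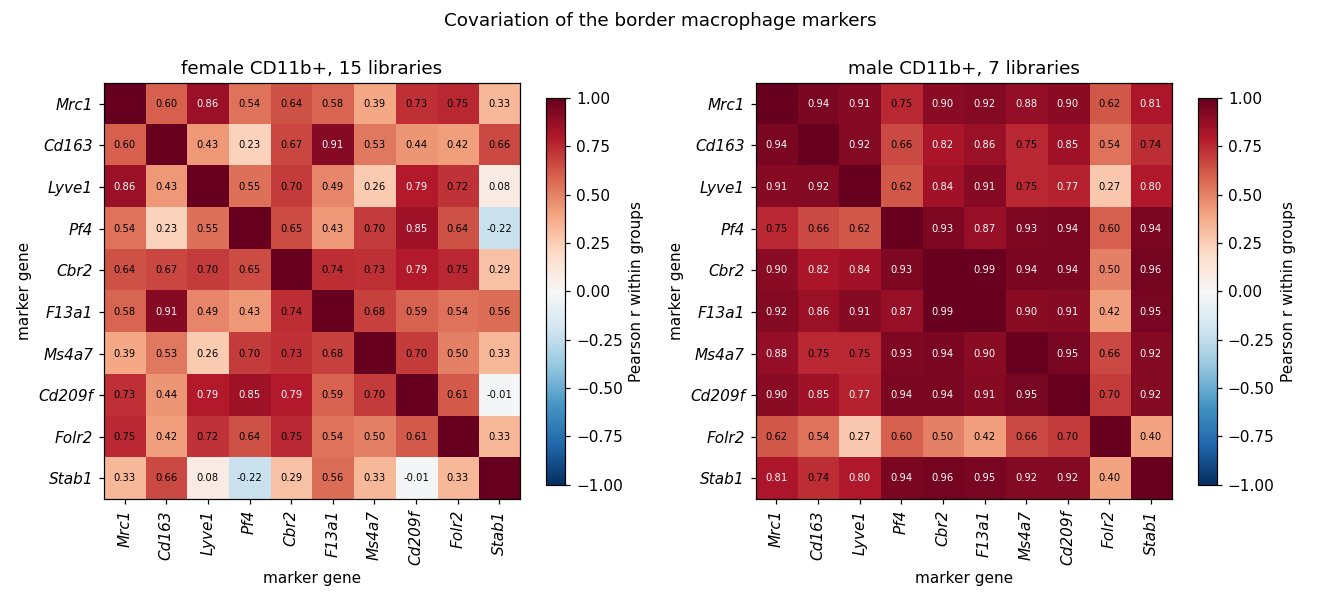
Pearson's r between each pair of the 10 genes across libraries, from log2 CPM centred on group means, over the 15 female (left) and the 7 male CD11b+ libraries (right), with the value printed in each cell and the colour scale running from -1 to 1. Most female pairs are positive (median 0.59), the palest cells being those of *Stab1*, and the male pairs are higher (median 0.87), the palest being those of *Folr2*.

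3 of the genes share exon sequence with a gene on the opposite strand, and since counting ignored strand, reads there cannot be assigned to either gene with certainty. *Folr2* (ENSMUSG00000032725, chromosome 7, 101839988 to 101857194, GRCm38) overlaps *Gm10602* over 975 of its 1546 exonic bases. For *Stab1* (chromosome 14) the shared stretch with *Nt5dc2* is 112 bases of 10288, and for *F13a1* (chromosome 13) that with *Gm30489* is 74 of 6739. *Folr2*, the 1 gene with a positive log2FC in both comparisons of A+ with A-/Pwt/wt isolates, is also the 1 gene with most of its exonic bases shared, and the part of *Gm10602* in its values was not tested.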

How the data were processed

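Whole-number counts per gene were taken as deposited for 31 libraries. According to the study's methods and processing notes, the authors checked paired-end reads of mRNA captured on oligo(dT) beads with FastQC 0.11.7, trimmed them with Trimmomatic 0.39, aligned them to GRCm38 with STAR 2.7.9a and counted unique primary alignments per Gencode gene with featureCounts, ignoring strand. Genes that reached 10 counts in 3 or more compared libraries were tested with edgeR 4.0.16 (TMM scaling, quasi-likelihood test, two-sided, R 4.3.3), with p-values adjusted by Benjamini-Hochberg over all genes tested (FDR 0.05). DESeq2 1.42.0, other scalings and filters, a joint model of every group in a table and leaving out each library were alternatives. Ranges do not overlap where every library of a group lies beyond every library of the other. Promoter sequences are from RefSeq, and gene positions and exon lengths from a Gencode annotation of the same build. Replicates were single mice, and no pair of libraries of a group agreed within sampling noise (chi-square per degree of freedom at least 6.25).

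The 10 genes, the other gene lists and the tests were chosen with earlier results of these data known. Named beside the 10 genes were the most abundant and the called genes of the further border macrophage list, the most abundant genes of the other lists and the 15 genes most alike, apart from some that are not reported here. *Sall1* and *Col1a2* were named after their values were seen. Tests were checked on simulated data.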

Additional observations from a re-analysis of the deposited data

Results flagged for a closer look

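Of 60 groups of 4 to 7 libraries (10 genes in 6 groups), 4 held a library that stood apart from the rest of its group by Dixon's test at the 95% level, where chance gives about 1 in 20. In both genes of female A-/Pwt/wt isolates this was mouse 224, with 309 CPM of *Mrc1* against 122 to 189 CPM in the other 6 libraries, and 35.2 CPM of *Lyve1* against 9.73 to 14.5 CPM. *Folr2* measured 3.9 CPM in the A+/Pki/ki isolate of mouse 244 against 2.61 to 2.81 CPM in the other 3. In the cortex of A+/Pwt/wt mouse 257 *Folr2* measured 0.12 CPM against 0.191 to 0.199 CPM, from 3 to 7 counts per library.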

How the results depend on the processing

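No paired analysis was possible because the groups compared share no mouse numbers. *Folr2* had as few as 14 counts in a CD11b+ library, and in cortex 7 of the 10 genes had fewer than 50 counts in some library. Leaving out each library in turn gave 0 to 8 genes called for A+/Pwt/wt against A-/Pwt/wt (8 without mouse 223, 4 without 236, 3 without 224 or 331, 2 without 242 or 245, 1 without 225 or 243, 0 without 367, 375 or 380), with *Folr2* from -0.03 to 0.53. Of all genes, 0.529% to 2.88% were called in these fits. For A+/Pki/ki against A-/Pwt/wt leaving out each library gave 0 to 4 (0.331% to 6.35% of all genes), with *Folr2* from -0.13 to 0.29. For the difference between the KI effects it gave 0 to 1 (0% to 35.4% of all genes), with *Lyve1* from -0.22 to 0.27, *Cbr2* from -0.24 to 0.23, *Pf4* from -0.42 to 0.07, *Ms4a7* from -0.37 to 0.10 and *Cd209f* from -0.57 to 0.02. For KI against WT males leaving out each library gave 0 to 2 (2 without KI mouse 104, 0 without any other library), with *Cbr2* from -0.35 to 0.15, *Ms4a7* from -0.32 to 0.18, *Cd209f* from -0.33 to 0.29, *Pf4* from -0.25 to 0.24 and *Folr2* from 0 to 0.45. Of all genes, 33.5% were called without KI mouse 104 and 5.52% to 15.8% without another library. For A+/Pki/ki against A+/Pwt/wt isolates *Mrc1* ran from -0.03 to 0.25, *Cd163* from -0.13 to 0.13, *Ms4a7* from 0 to 0.16, *Cbr2* from -0.21 to 0.14 and *Folr2* from -0.48 to 0, and in cortex *Stab1* from -0.22 to 0.06, *F13a1* from -0.22 to 0.28, *Lyve1* from -0.17 to 0.37 and *Cd163* from -0.34 to 0.05. The median r between the genes ran from 0.42 (without mouse 223) to 0.65 in females, from 0.82 to 0.91 in males and from -0.03 (without mouse 184) to 0.36 in cortex.

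By DESeq2, 8 genes were called for A+/Pwt/wt against A-/Pwt/wt, 6 for A+/Pki/ki against A-/Pwt/wt and 1 for the difference between the KI effects, where *Cbr2* was -0.04. Of all genes, DESeq2 called 3.66%, 5.48% and 6.73%. A fit of all groups of the table called 7 and 4 in the A- comparisons, against 1.47% and 2.86% of all genes. Leaving out mice 223 and 224, an alternative chosen after seeing the data, called 8 and 2, against 2.13% and 1.02% of all genes. With no filter on counts, 2 were called for A+/Pwt/wt against A-/Pwt/wt (0.67% of all genes) and 0 in males (10.4% of all genes), where *Cd209f* was 0.03, and *Cbr2* was -0.05 in the difference, as it was -0.04 with the size factors of DESeq2. Scaling to the homeostatic microglial genes moved the median log2FC of all genes by 0.4 in males, -0.18 in A+/Pki/ki against A+/Pwt/wt isolates, -0.20 in A+/Pki/ki against A-/Pwt/wt isolates, 0.55 in the difference and -4.51 and -4.69 in the cortex comparisons of A+/Pwt/wt and A+/Pki/ki mice, and by at most 0.01 elsewhere. It called 0 of the 10 genes in males, against 18.1% of all genes, and there *Mrc1* was 0.05, *Cbr2* 0.23, *F13a1* 0.14, *Ms4a7* 0.24 and *Cd209f* 0.31. It called 2 in A+/Pwt/wt and 2 in A+/Pki/ki against A-/Pwt/wt isolates (*Folr2* -0.11 in the latter), against 1.28% and 0.986% of all genes. In A+/Pki/ki against A+/Pwt/wt isolates it gave -0.02 for *Mrc1*, -0.18 for *Cd163* and -0.09 for *Ms4a7*, and in cortex 0 for *F13a1*. In the difference it gave 0.07 for *Mrc1*, 0.05 for *Cd163*, 0.51 for *Lyve1*, 0.33 for *Pf4*, 0.08 for *F13a1*, 0.33 for *Ms4a7* and 0.23 for *Cd209f*. Against cortex it called 3 genes in each genotype, with *Cd163* at -1.05, *Lyve1* at -0.67, *Pf4* at -0.49, *Cbr2* at -0.20 and *Cd209f* at -1.01 in A+/Pwt/wt mice, and *Cd163* at -1.06, *Lyve1* at -0.73, *Pf4* at -0.18, *Cbr2* at -0.33, *Ms4a7* at 0, *Cd209f* at -0.45 and *Folr2* at -0.83 in A+/Pki/ki mice. On that scale the median r was 0.65 in females and 0.63 in males. For values that changed sign under a test or filter, or with a library left out, the cause was not tested.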

Other observations

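The cortex of the 1 A-/Pwt/wt female (mouse 312) was in no comparison. Its levels of *Cbr2* (1.65 CPM) and *Pf4* (1.14 CPM) lay above all 8 A+ cortex libraries (0.574 to 1.08 and 0.546 to 1.08 CPM), and those of *Folr2* (0.0715 CPM, 3 counts) below them (0.0728 to 0.327 CPM). The other 7 genes lay within the A+ range, among them *Mrc1* (3.41 CPM against 2.18 to 4.92 CPM), *Cd163* (3.84 CPM against 2.47 to 4.75 CPM) and *Stab1* (14.8 CPM against 13.1 to 23.7 CPM).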
